A study of Mus musculus with 9 samples.

Results

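Branchiomeric muscle regulators were examined as 9 genes, Tcf21, Msc, Myf5, Myf6, Myod1, Lhx2, Ebf1, Ebf2 and Ebf3, of 22225 protein-coding genes in the annotation. A member's locus was its gene body with 50 kb on each side in mouse build mm9, and a peak belonged to it when the peak's midpoint lay inside. Myf5 and Myf6 are neighbours whose windows are nearly the same, so the 9 genes form 8 separate loci. The peaks there came from ATAC-seq, in which a transposase cuts and tags open chromatin and a peak is a stretch with more cuts than its surroundings. Each of the 9 libraries came from sorted GFP-positive, DAPI-negative cells of Swiss Webster embryos, pooled at embryonic day 9.5, with 3 libraries per group. Cells carried Rosa26-GFPflox/+, a reporter that Cre switches on permanently. The Mesp1-Cre Ctrl group was Mesp1Cre;Rosa26-GFPflox/+ and marks mesoderm. The Tbx1-Cre Ctrl group was Tbx1Cre;Rosa26-GFPflox/+ and marks the Tbx1 lineage, which holds pharyngeal mesoderm, endoderm and ectoderm. Since Cre sits in the Tbx1 gene, these controls carry 1 working Tbx1 copy. In the Tbx1-Cre cKO group, Tbx1Cre/flox;Rosa26-GFPflox/+, the other copy is floxed and is lost where Cre acts. The labels name pharyngeal apparatus and heart as the tissue for Mesp1-Cre and the same with the back for Tbx1-Cre, whereas the study's methods describe pharyngeal apparatus from which the heart was left out and name no difference between the lines. If the labels hold, lineage and dissection cannot be told apart in that comparison.

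Branchiomeric muscles are the jaw, facial, pharyngeal and laryngeal muscles, which arise from the mesoderm of the pharyngeal arches rather than from somites. Their progenitors express Tbx1, Tcf21, Msc and Lhx2 before the myogenic factors Myf5 and Myod1 are switched on, and Tbx1 is a T-box transcription factor that this programme needs. Ebf factors act in mesoderm and in muscle as well as in neurons and B lymphocytes. Open chromatin at a gene marks promoters and candidate enhancers and does not by itself report transcription.

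The lists differed in length before any gene was looked at. The Tbx1-Cre Ctrl lists held 43298 to 49490 peaks, the Mesp1-Cre Ctrl lists 25485 to 42650 and the cKO lists 19772 to 29251, so every Tbx1-Cre Ctrl list was longer than every list of the other groups. Mesp1-Cre Ctrl replicate 1, with 42650 peaks, stood apart from the 25485 and 30535 of its group. Its length also matches none of the peak numbers that the study lists for its libraries. The files give positions without scores or reads, so sequencing depth is unknown and a missing peak is not evidence of closed chromatin. In bulk sorted cells, fewer cells of a type and less open chromatin per cell cannot be told apart. As a marker check, promoter peaks were present at 6, 6 and 6 of 8 mesoderm and heart genes in Tbx1-Cre Ctrl, at 6, 6 and 5 in Mesp1-Cre Ctrl and at 3, 5 and 2 in cKO, with Tnnt2 without one in any library. Tbx1 itself had a promoter peak in 3 Tbx1-Cre Ctrl, 2 Mesp1-Cre and 0 cKO libraries, which does not test the deletion. Epithelial markers had promoter peaks at 4, 2 and 4 of 7 genes in Tbx1-Cre Ctrl, 4, 2 and 2 in Mesp1-Cre Ctrl and 1, 2 and 1 in cKO. The counts were 2, 2 and 2 of 5 endothelial genes in Tbx1-Cre Ctrl, 2, 2 and 1 in Mesp1-Cre Ctrl and 1, 1 and 1 in cKO, while blood and neural lists of 3 genes each had 2 or fewer in every library. The part of these differences in the results at the members was not tested.

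The sequences below are open cores of distal regions at the loci. For each locus that had one, the distal region of the largest mean peak width among those with a peak in all 3 Tbx1-Cre Ctrl libraries and none in cKO is shown, followed by that among the distal regions with a peak in all 9 libraries. The mean was taken over the libraries with a peak there. Distal means over 1 kb from every annotated transcription start site (TSS). Each stretch is 200 bp of mm9, plus strand, centred on the part that all 3 Tbx1-Cre Ctrl libraries covered. Capitals mark matches, on either strand, to AGGTGT, the core letters of a T-box site, and to CAGATG, an E-box bound by bHLH factors such as Tcf21, Msc and the myogenic factors.
Tcf21, no cKO peak, intron to coding exon of Tcf21, chr10:22537567-22537766: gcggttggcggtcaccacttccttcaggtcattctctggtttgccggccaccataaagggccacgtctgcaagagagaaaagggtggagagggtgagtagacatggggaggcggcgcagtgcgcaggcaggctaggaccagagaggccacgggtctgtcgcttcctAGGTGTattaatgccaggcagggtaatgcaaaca
Myf5/Myf6, no cKO peak, between the 2 genes, chr10:106925949-106926148: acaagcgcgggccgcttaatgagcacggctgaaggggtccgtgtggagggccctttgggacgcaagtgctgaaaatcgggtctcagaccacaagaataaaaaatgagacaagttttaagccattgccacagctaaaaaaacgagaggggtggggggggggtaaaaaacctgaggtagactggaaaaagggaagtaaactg
Ebf1, no cKO peak, intron of Ebf1, chr11:44680090-44680289: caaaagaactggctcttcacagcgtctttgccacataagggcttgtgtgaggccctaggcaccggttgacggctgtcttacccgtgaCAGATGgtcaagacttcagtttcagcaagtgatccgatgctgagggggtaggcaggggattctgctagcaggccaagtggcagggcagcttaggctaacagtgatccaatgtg
Ebf2, no cKO peak, intergenic, downstream of Ebf2, chr14:68076550-68076749: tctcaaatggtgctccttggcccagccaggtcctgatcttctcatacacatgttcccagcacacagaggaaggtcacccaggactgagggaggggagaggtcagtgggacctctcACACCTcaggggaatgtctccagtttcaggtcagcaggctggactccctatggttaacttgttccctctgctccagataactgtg
Ebf1, all 9 libraries, intron of Ebf1, chr11:44521286-44521485: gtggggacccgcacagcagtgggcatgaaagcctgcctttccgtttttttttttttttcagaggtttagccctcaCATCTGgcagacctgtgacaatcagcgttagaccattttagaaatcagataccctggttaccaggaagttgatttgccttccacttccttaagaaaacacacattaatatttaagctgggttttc
Ebf2, all 9 libraries, intergenic, upstream of Ebf2, chr14:67807701-67807900: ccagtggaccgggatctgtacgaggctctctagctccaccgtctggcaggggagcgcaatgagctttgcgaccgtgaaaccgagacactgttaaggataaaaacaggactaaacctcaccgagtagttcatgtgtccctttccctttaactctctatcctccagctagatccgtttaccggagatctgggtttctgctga

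Motif matches in these few cores are given beside shares over the genome. AGGTGT or its complement occurred once in the Tcf21 core and once in the downstream Ebf2 core, so in 2 of the 4 cores without a cKO peak and in 0 of the 2 open in all libraries. Over the genome, 7.06% of 15388 like-sized windows, centred in distal regions with a peak in all 3 Tbx1-Cre Ctrl libraries, held AGGTGT. That share was 7.02% of 4316 windows without a cKO peak and 6.54% of 4161 with a peak in all 3 cKO libraries. CAGATG occurred once in each Ebf1 core, against 20.5% of all such windows. The other motifs searched on both strands, CAGCTG (E-box, 19.5% of all windows), CCCNNGGG (EBF, 10.4%) and TAATTA (homeobox, 4.31%), were in none of the 6 cores. A palindrome such as CAGCTG was counted once per position. Matches are a description of these letters and not of binding.

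At every member the cKO mean was below the Tbx1-Cre Ctrl mean, and at 7 of 9 the groups did not overlap. Myf5 and Myf6, which form 1 locus, are both among these 7. Summed over the 8 loci, the lists held 85, 49 and 60 peaks in Tbx1-Cre Ctrl, 32, 21 and 18 in cKO and 56, 31 and 33 in Mesp1-Cre Ctrl. Of 19825 coding genes with a peak in their windows in either Tbx1-Cre group, 27.3% likewise had every Tbx1-Cre Ctrl library above every cKO library, and 87.1% had a lower mean in cKO. The median difference, cKO minus Ctrl, was -3 peaks over the members and -1.33 over all genes tested. Of the 9 members, 3 have gene bodies over 100 kb, and a long window holds more peaks. The exact two-sided permutation test of 3 libraries against 3 cannot give a p below 0.1, and the smallest p adjusted over all genes (Benjamini-Hochberg) was 0.364. For distal peaks the groups did not overlap at 5 of 9 members, against 25.6% of 17722 genes.

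**Figure D1:**
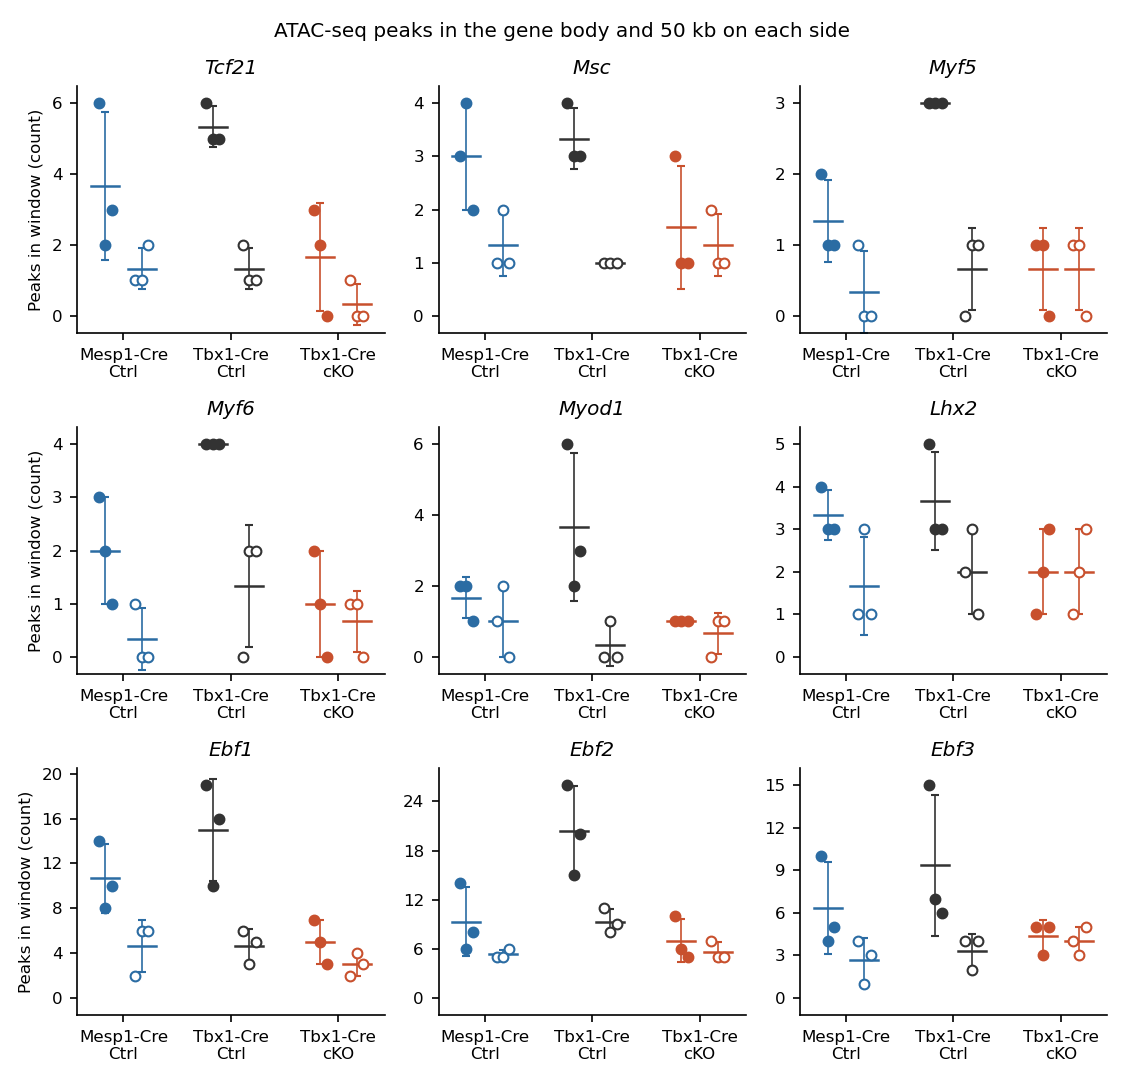
Number of ATAC-seq peaks (vertical axis) in the gene body and 50 kb on each side of each of the 9 genes, by group (horizontal axis), 1 point per library in replicate order, with the mean as a bar and ± 1 SD (n = 3). Filled points use the full lists and open points the 19772 widest peaks of every list. With filled points the Tbx1-Cre Ctrl libraries sit above the cKO libraries at 7 of 9 genes, and with open points only at Ebf2.

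The difference was smaller once the length of the lists was taken into account. Scaled to 10000 peaks of its own list, a library held 17.2, 11.3 and 12.8 peaks at the 8 loci in Tbx1-Cre Ctrl, 10.9, 8.73 and 9.10 in cKO, and 13.1, 12.2 and 10.8 in Mesp1-Cre Ctrl. On the same scale 4 of 9 members, Tcf21, Myf5, Myf6 and Ebf2, had no overlap between Tbx1-Cre Ctrl and cKO, against 5.17% of 19825 genes. Myf5 and Myf6 form 1 locus there too. The scaled mean was lower in cKO at 8 of 9 members and at 32.0% of genes, with a median difference of -0.39 peaks over the members and 0.21 over all genes tested. For distal peaks on this scale 1 of 9 members, Ebf1, was called, against 13.6% of 17722 genes. Scaled distal counts averaged less in cKO than in Tbx1-Cre Ctrl for all 9 members and for 70.3% of those genes. Their median differences were -0.35 peaks for the members and -0.10 peaks for all genes tested. The members thus stood out less from other genes in distal peaks than in all peaks. For the sum, all 3 cKO values stayed below all 3 Tbx1-Cre Ctrl values, and the Mesp1-Cre values lay within the Ctrl range apart from the lowest. When every list was cut to its 19772 widest peaks, the length of the shortest list, the groups did not overlap at 1 of 9 members, Ebf2, where 1.28% of 18854 genes were called. The mean was then lower in cKO at 4 members, equal at 2 and higher at 3, while 26.0% of genes were lower and 48.3% higher. For distal peaks in the equal lists no member was called, where 2.29% of 12936 genes were. Distal counts in those lists averaged less in cKO for 5 members, the same for 2 and more for 2. Among the genes 38.4% averaged less and 40.6% more.

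Tcf21 and Msc, bHLH factors that act early in the pharyngeal arch muscle programme, differed in what was retained in cKO. Tcf21 had 6, 5 and 5 peaks in Tbx1-Cre Ctrl (5.33 ± 0.577, SD, n = 3) and 3, 2 and 0 in cKO (1.67 ± 1.53), without overlap (exact permutation p = 0.1, adjusted p = 0.364). The third cKO library, with the shortest list, held no peak at all in the 103 kb window of Tcf21. In Mesp1-Cre Ctrl the counts were 6, 2 and 3, which overlapped Tbx1-Cre Ctrl. In equal lists Tcf21 had 2, 1 and 1 peaks in Tbx1-Cre Ctrl and 1, 0 and 0 in cKO, which touched at 1.

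Within the Tcf21 locus the region that all 3 Tbx1-Cre Ctrl libraries held and no other library did lay inside the gene at chr10:22537458-22537969. Its midpoint was 2220 bp from the TSS, its Tbx1-Cre Ctrl peaks were 446, 210 and 314 bp wide, and the nearest cKO peak was 1717 bp away. The widest region, at chr10:22562928-22564181 and -23621 bp from the TSS (negative values lie upstream), held peaks of 803, 548 and 767 bp in Tbx1-Cre Ctrl. There cKO replicates 1 and 2 each held a peak of 200 bp, the least width in those lists, and replicate 3 none, while Mesp1-Cre Ctrl held 1015, 199 and 689 bp. Another region, 6362 bp past the TSS, was held by 3 Tbx1-Cre Ctrl, 1 Mesp1-Cre and 1 cKO library. At -48550 bp the order was turned, with a peak in 3 Mesp1-Cre libraries, in 1 Tbx1-Cre Ctrl library and in 0 cKO libraries. The Tcf21 promoter itself was weakly covered, with a peak within 1 kb of the TSS in 2 of 3 Tbx1-Cre Ctrl, 1 of 3 Mesp1-Cre and 1 of 3 cKO libraries.

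Msc had 4, 3 and 3 peaks in Tbx1-Cre Ctrl (3.33 ± 0.577), 3, 1 and 1 in cKO (1.67 ± 1.15) and 3, 4 and 2 in Mesp1-Cre Ctrl (3 ± 1), and the ranges of the groups met or overlapped (exact permutation p = 0.3 against cKO and 1 against Mesp1-Cre). Its promoter region, chr1:14745154-14746324, held a peak in all 9 libraries. The base pairs covered within 1 kb of the TSS were 789, 1018 and 797 in Tbx1-Cre Ctrl and 551, 602 and 295 in cKO, which did not overlap, a difference of -385 bp (exact permutation p = 0.1). In equal lists Tbx1-Cre Ctrl replicate 1 had no peak there and the difference was -122 bp (p = 0.8 by the same exact test), and within 500 bp of the TSS it was -151 bp (exact p = 0.2). The Mesp1-Cre values of 916, 647 and 670 bp overlapped Tbx1-Cre Ctrl. Beyond the promoter, 2 distal regions past the 3' end, 15774 and 39360 bp from the TSS, were held by all 3 Tbx1-Cre Ctrl libraries, by 3 and 2 Mesp1-Cre libraries and by cKO replicate 1 alone among the cKO libraries.

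**Figure D2:**
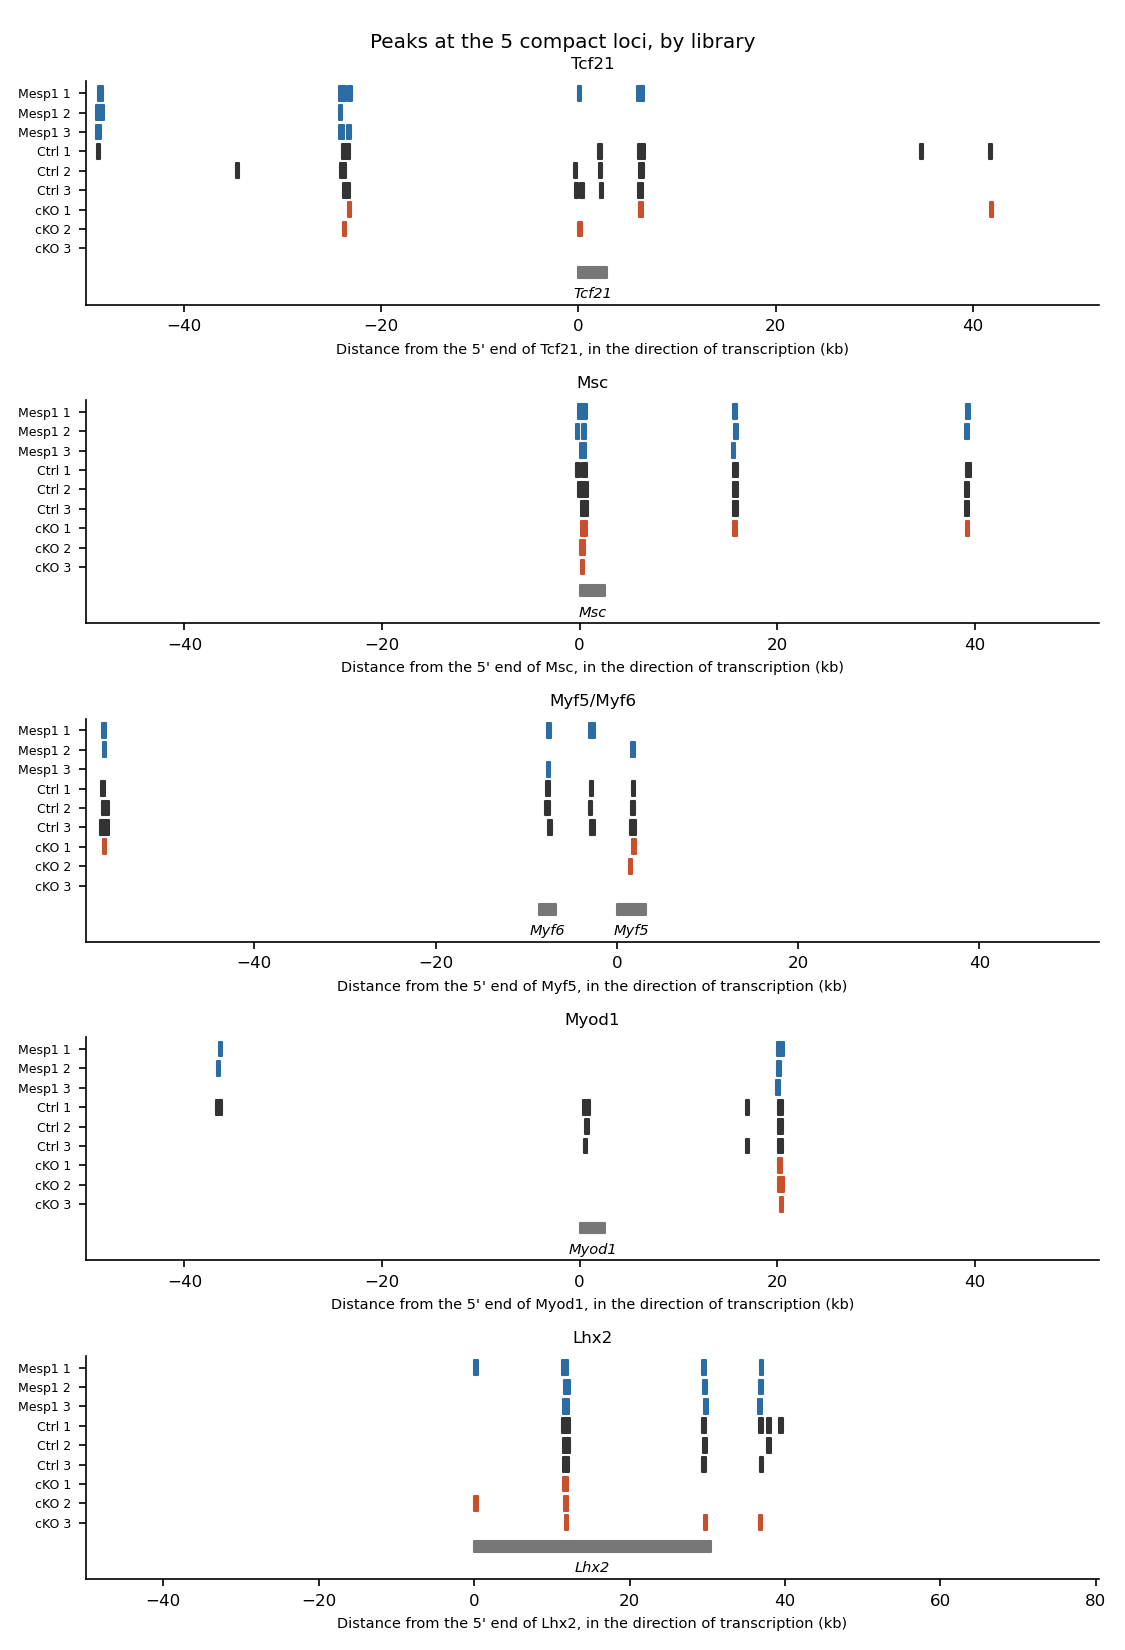
Peaks of each library (rows from top to bottom: Mesp1-Cre in blue, Tbx1-Cre Ctrl in black, cKO in orange, replicates 1 to 3 of each) along 5 loci, against distance in kb from the 5' end of the named gene in its direction of transcription. Coloured bars are peaks, with narrow ones widened so that they can be seen, and grey bars are gene bodies. Only the third cKO library has no peak at Tcf21 and at Myf5/Myf6, and the peak inside Myod1 appears in the 3 Tbx1-Cre Ctrl rows alone.

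Myf5 and Myf6, which encode myogenic bHLH factors, share their enhancer region, and their 4 regions were each held by all 3 Tbx1-Cre Ctrl libraries. Peak counts at Myf6 were 4, 4 and 4 in Tbx1-Cre Ctrl, 2, 1 and 0 in cKO and 3, 2 and 1 in Mesp1-Cre Ctrl. At Myf5 they were 3, 3 and 3, then 1, 1 and 0, then 2, 1 and 1. For distal peaks the Myf6 difference from Mesp1-Cre, -2 peaks, was -1.33 without Mesp1-Cre Ctrl replicate 3. Neither gene's Tbx1-Cre Ctrl values overlapped those of cKO or of Mesp1-Cre Ctrl (exact permutation p = 0.1 in each, adjusted p = 0.364 against cKO and 0.921 against Mesp1-Cre). In equal lists Myf6 had 0, 2 and 2 in Tbx1-Cre Ctrl and 1, 1 and 0 in cKO, which overlapped.

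Of the 4 regions, 2 had no cKO peak. The first, chr10:106925641-106926217, lay between the genes at -2739 bp from the Myf5 TSS, with peaks of 317, 274 and 518 bp in Tbx1-Cre Ctrl and 577 bp in Mesp1-Cre replicate 1, and the nearest cKO peak was 3808 bp away. The other, chr10:106930442-106931120, reached to within 1 kb of the Myf6 TSS and had its midpoint in a Myf6 intron, with peaks of 445, 613 and 236 bp in Tbx1-Cre Ctrl and a peak in 2 Mesp1-Cre libraries. The region in the Myf5 intron, 1760 bp from its TSS, kept a peak in cKO replicates 1 and 2, and the one at -47908 bp from Myf6, in an intron of Ptprq, kept one in cKO replicate 1. No library of any group had a peak within 1 kb of the Myf5 TSS.

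Myod1, the myogenic bHLH factor that commits cells to muscle, had a peak in its own gene in the Tbx1-Cre Ctrl libraries alone. That region, chr7:53632252-53632934, had its midpoint in the coding exon 749 bp past the TSS. Coverage within 1 kb of the TSS was 442, 266 and 305 bp in Tbx1-Cre Ctrl (338 ± 92.4) and 0 in all 3 cKO and all 3 Mesp1-Cre libraries (exact permutation p = 0.1 in each comparison). The nearest cKO peak was 18956 bp away, at the promoter of the neighbouring potassium channel gene Kcnc1, where all 9 libraries held a peak. In total the Myod1 window held 6, 2 and 3 peaks in Tbx1-Cre Ctrl, 1, 1 and 1 in cKO and 2, 2 and 1 in Mesp1-Cre Ctrl. The difference from cKO, -2.67 peaks, was -1.5 without Tbx1-Cre Ctrl replicate 1. None of the peaks in the Myod1 gene was among the 19772 widest of its list, so that coverage near the TSS in equal lists was 0 in every library.

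Lhx2, a LIM-homeodomain factor of the pharyngeal mesoderm, was, beside Msc, the other member whose counts in Tbx1-Cre Ctrl and cKO overlapped. It had 5, 3 and 3 peaks in Tbx1-Cre Ctrl, 1, 2 and 3 in cKO and 4, 3 and 3 in Mesp1-Cre Ctrl (exact permutation p = 0.3 against cKO and 1 against Mesp1-Cre). A region at an internal start site, chr2:38206123-38207169, 11845 bp into the gene, held a peak in all 9 libraries, of 955, 962 and 844 bp in Tbx1-Cre Ctrl, 775, 819 and 833 bp in Mesp1-Cre Ctrl and 545, 569 and 311 bp in cKO. At the 5' TSS the lists had a peak in 1 Mesp1-Cre and 1 cKO library and in 0 of 3 Tbx1-Cre Ctrl libraries. A region at the last coding exon, 29693 bp from the 5' end, was held by 3 Tbx1-Cre Ctrl, 3 Mesp1-Cre and 1 cKO library.

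The Ebf genes, which encode helix-loop-helix factors of the COE family, held 66 of the 84 distal regions found at the 8 loci and 21 of the 30 with a peak in all 3 Tbx1-Cre Ctrl libraries. Their windows are long, from 221 kb at Ebf3 to 491 kb at Ebf1, where the median window of all coding genes was 115 kb.

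Ebf2 showed the clearest difference between the groups. It had 26, 15 and 20 peaks in Tbx1-Cre Ctrl (20.3 ± 5.51), 10, 6 and 5 in cKO (7 ± 2.65) and 14, 6 and 8 in Mesp1-Cre Ctrl (9.33 ± 4.16). Tbx1-Cre Ctrl overlapped neither group (exact permutation p = 0.1 in each, adjusted p = 0.364 and 0.921). Of the 26 distal regions at this locus, 8 had a peak in Tbx1-Cre Ctrl replicate 1 alone. In equal lists the counts were 11, 8 and 9 in Tbx1-Cre Ctrl, 7, 5 and 5 in cKO and 5, 5 and 6 in Mesp1-Cre Ctrl, again without overlap in either comparison (exact permutation p = 0.1, adjusted p = 1). Among distal peaks of equal lists the values were 9, 7 and 9 against 7, 5 and 5, which met at 7. The region chr14:67853039-67853812 lies at the 1 kb edge and enters these values unevenly. Its peaks counted as promoter in Tbx1-Cre Ctrl replicates 1 and 2 and as distal in replicate 3 and all 3 cKO libraries.

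The Ebf2 locus held 12 distal regions with a peak in all 3 Tbx1-Cre Ctrl libraries, and of these 9, 5 and 3 had a peak in cKO replicates 1, 2 and 3 and 9, 5 and 5 in the Mesp1-Cre libraries. Those without a cKO peak were chr14:68043802-68044616, in an intron 192080 bp from the TSS, and chr14:68076319-68076960, past the end of the gene. The latter had no Mesp1-Cre peak either, and its nearest cKO peak lay 26360 bp away. The intronic region 67157 bp from the TSS was wide in Tbx1-Cre Ctrl (991, 684 and 984 bp), absent from the Mesp1-Cre lists and held by cKO replicate 2 alone. At -12254 bp, peaks of 858, 765 and 861 bp in Tbx1-Cre Ctrl stood beside 379, 322 and 288 bp in cKO and 1 Mesp1-Cre peak of 250 bp. At -44306 bp, chr14:67807339-67808307 was held by all 9 libraries with widths of 857, 884 and 864 bp in Tbx1-Cre Ctrl, 906, 756 and 871 bp in Mesp1-Cre Ctrl and 756, 774 and 222 bp in cKO.

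Just upstream of Ebf2, chr14:67851029-67851822 was held by the 3 Tbx1-Cre Ctrl libraries alone, with its midpoint at -703 bp and peaks of 648, 426 and 334 bp. Coverage within 1 kb of the TSS was 739, 340 and 687 bp in Tbx1-Cre Ctrl and 0 in every cKO and Mesp1-Cre library (exact permutation p = 0.1 in each). In equal lists the Tbx1-Cre Ctrl values were 739, 14 and 0 bp, and the difference of -251 bp from either group had an exact permutation p of 0.4. A second region that reached to within 1 kb of the TSS, chr14:67853039-67853812 with its midpoint 1297 bp into the gene, was held by all 9 libraries, and in cKO and Mesp1-Cre its peaks began beyond 1 kb.

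Ebf1 had 19, 10 and 16 peaks in Tbx1-Cre Ctrl (15 ± 4.58), 7, 5 and 3 in cKO (5 ± 2) and 14, 8 and 10 in Mesp1-Cre Ctrl (10.7 ± 3.06). Only the comparison with cKO was without overlap (exact permutation p = 0.1, adjusted p = 0.364). In equal lists the counts were 6, 3 and 5 in Tbx1-Cre Ctrl and 2, 4 and 3 in cKO, which overlapped. The Ebf1 promoter, chr11:44430225-44431112, held a peak in all 9 libraries, with coverage within 1 kb of the TSSs of 860, 622 and 691 bp in Tbx1-Cre Ctrl and 681, 555 and 501 bp in cKO.

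Of 7 distal Ebf1 regions with a peak in all 3 Tbx1-Cre Ctrl libraries, all but 1 in introns, 3 had no cKO peak. The widest of them, chr11:44679831-44681005, 249599 bp from the 5' end, had peaks of 1075, 613 and 972 bp in Tbx1-Cre Ctrl and of 664, 720 and 492 bp in Mesp1-Cre Ctrl, and the nearest cKO peak was 30624 bp away. It was the only distal region at the 8 loci with a peak in all 6 control libraries and in no cKO library. That is 1 of 30 distal regions held by all 3 Tbx1-Cre Ctrl libraries (3.33%), against 3.35% of 15391 in the genome. All 3 Tbx1-Cre Ctrl peaks of chr11:44679831-44681005 and no cKO peak were in the equal lists. Of the other regions without a cKO peak whose core is shown, those at Tcf21 and Myf5/Myf6 kept 0 Tbx1-Cre Ctrl peaks there. The one downstream of Ebf2 kept 1. The region chr11:44554410-44555269 held 698, 425 and 796 bp in Tbx1-Cre Ctrl and no peak in the other groups, although cKO and Mesp1-Cre peaks lay 1764 and 210 bp away. The third, chr11:44468832-44469375, had 290, 353 and 524 bp in Tbx1-Cre Ctrl and 1 Mesp1-Cre peak. Open in all 9 libraries were chr11:44478688-44479531 and chr11:44520985-44521889, the latter with 905, 597 and 865 bp in Tbx1-Cre Ctrl and 248, 318 and 569 bp in cKO. Intronic regions 79683 and 296630 bp from the 5' end had a peak in 3 Mesp1-Cre, 2 Tbx1-Cre Ctrl and 0 cKO libraries each.

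Ebf3 had 15, 7 and 6 peaks in Tbx1-Cre Ctrl (9.33 ± 4.93), 5, 3 and 5 in cKO (4.33 ± 1.15) and 10, 4 and 5 in Mesp1-Cre Ctrl. The groups did not overlap against cKO (exact permutation p = 0.1, adjusted p = 0.364), but the first Tbx1-Cre Ctrl library alone held 7 of the 15 distal regions, and without it the difference went from -5 to -2.17 peaks, for all and for distal peaks alike. In equal lists the order was turned, with 4, 2 and 4 peaks in Tbx1-Cre Ctrl and 4, 3 and 5 in cKO, which overlapped. Both of its promoter regions, chr7:144505836-144506976 at the 5' end and chr7:144457773-144458874 at an internal start site, were held by all 9 libraries. Coverage within 1 kb of its start sites was 1731, 1258 and 1400 bp in Tbx1-Cre Ctrl, 707, 1085 and 719 bp in cKO and 911, 899 and 654 bp in Mesp1-Cre Ctrl, so Tbx1-Cre Ctrl was above both groups (exact permutation p = 0.1 in each), and in equal lists the differences from Tbx1-Cre Ctrl were -713 bp for cKO and -1025 bp for Mesp1-Cre, again without overlap. The intronic region 45448 bp from the 5' end kept a peak in all 3 cKO libraries and in 1 Mesp1-Cre library.

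**Figure D3:**
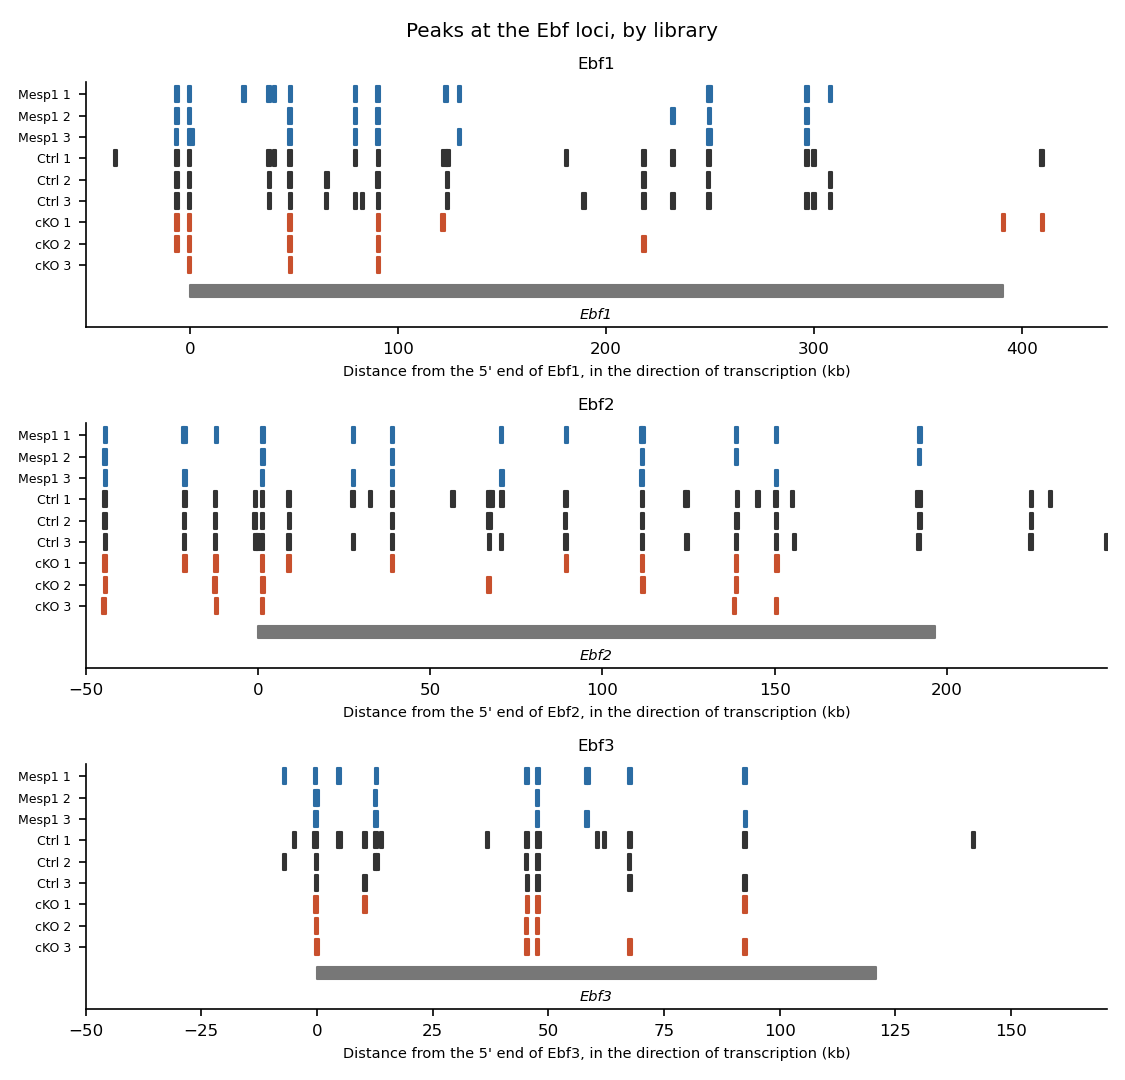
Peaks of each library (rows as in the map of the 5 loci) along Ebf1, Ebf2 and Ebf3, against distance in kb from the 5' end of the gene in its direction of transcription. Coloured bars are peaks, with narrow ones widened so that they can be seen, and grey bars are gene bodies. At Ebf1 the stretch from 249599 bp onward has control peaks and no cKO peak until the 3' end of the gene, and at Ebf2 no cKO peak lies past the region at 150443 bp.

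Over all loci, 84 distal and 15 promoter regions were found, of 73343 regions in the genome. All 3 Tbx1-Cre Ctrl libraries held a peak in 30 of the 84 distal regions, and of these 7 (23.3%) had no cKO peak, against 28.0% of 15391 such regions in the genome. A peak was kept in all 3 cKO libraries in 5 of the 30 (16.7%), against 27.1%. By library, 19, 12 and 8 of the 30 were held in cKO replicates 1, 2 and 3 (63.3%, 40.0% and 26.7%), beside 62.4%, 46.8% and 37.1% of such regions in the genome. Mesp1-Cre lists held 23, 15 and 12 of the 30, and 6 (20%) had no Mesp1-Cre peak, against 24.6% in the genome. A peak in all 9 libraries was found in 3 of 84 (5.82% in the genome), and a peak in a single library in 28 of 84 (38.1% in the genome). That single library was Tbx1-Cre Ctrl replicate 1 in 20 of the 84 (23.8%), against 10.9% in the genome. Of these 20, 8 lay at Ebf2, 7 at Ebf3 and 3 at Ebf1. No distal region had 3 Mesp1-Cre peaks and no Tbx1-Cre Ctrl peak, against 0.942% in the genome. The share without a cKO peak was near that of the genome. Leaving out Tbx1-Cre Ctrl replicate 2 or cKO replicate 1 raised the regions without a cKO peak from 7 to 15 in each case, and the widest 19772 peaks of each list left 2. No genome share is given for these settings, so the 15 and the 2 are not set against other loci. With a library left out, fewer libraries have to meet the pattern at any locus.

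The study's design uses regions open in both Cre lineages to reach mesoderm, with Mesp1-Cre peaks shared by all 3 replicates. Of the 30 regions, 24 had at least 1 Mesp1-Cre peak, a looser rule than the study's. Among these 24, 4 (16.7%) had no cKO peak, against 19.1% in the genome. By the stricter rule of 3 Mesp1-Cre peaks there were 10 regions, and 1 of them (10%) had no cKO peak. Of the 6 without a Mesp1-Cre peak, 3 had no cKO peak. Over the genome the share without a cKO peak was 8.88% among regions with 3 Mesp1-Cre peaks and 55.3% among those with none. The Tbx1-Cre Ctrl widths differed alongside, with a median of 451 bp (range 323 to 887) in the 7 regions without a cKO peak and 789 bp (500 to 868) in the 5 held by all 3 cKO libraries.

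**Figure D4:**
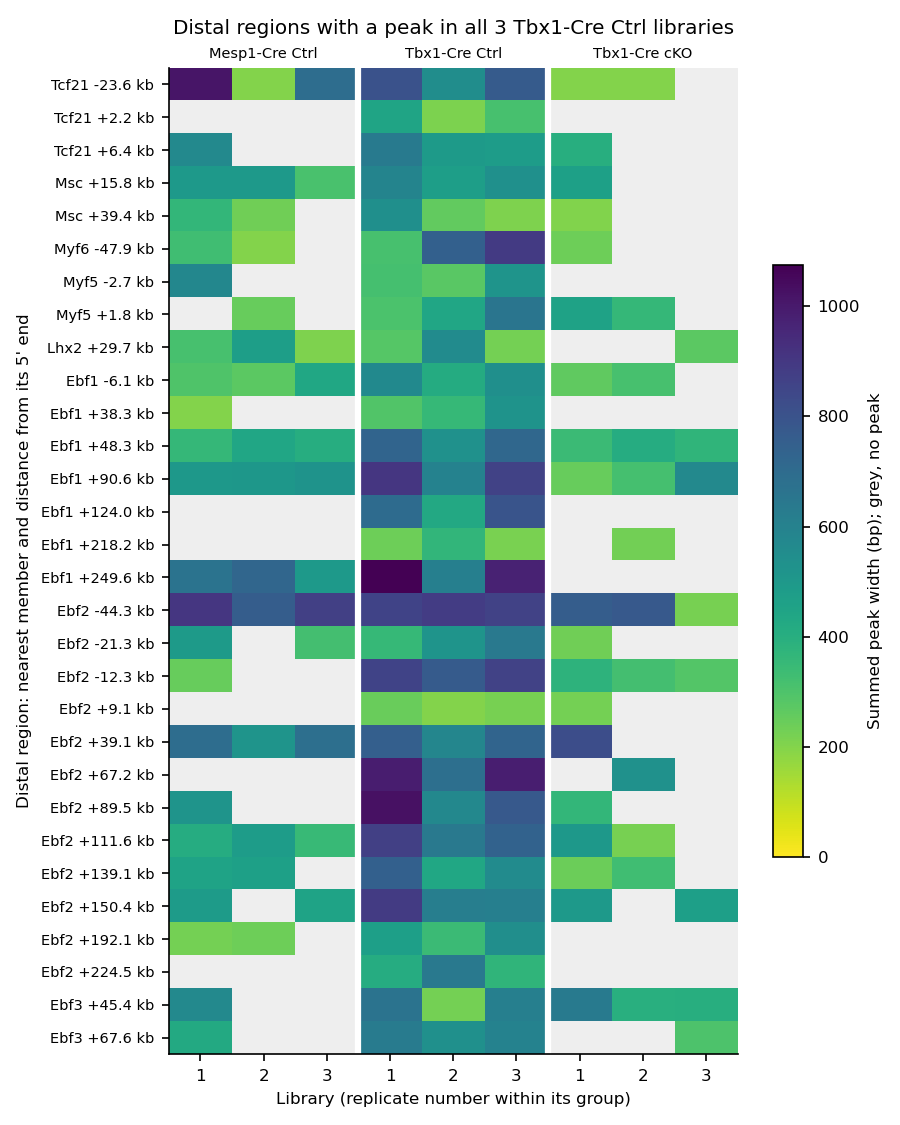
The 30 distal regions with a peak in all 3 Tbx1-Cre Ctrl libraries (rows, named by the nearest member and the distance of the midpoint from its 5' end in kb) in the 9 libraries (columns, by group), with the summed width of the library's peaks in the region in bp as colour and grey where the library has no peak. The grey cells of the cKO columns number 11, 18 and 22, and 7 rows are grey in all 3.

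At promoters the pattern differed from gene to gene. Msc, Lhx2, Ebf1 and Ebf3 had a peak within 1 kb of one of their start sites in all 9 libraries. Myod1 and Ebf2 had one in 3 of 3 Tbx1-Cre Ctrl libraries and in 0 of the other 6. Myf6 had one in 2 Tbx1-Cre Ctrl and 2 Mesp1-Cre libraries and in 0 of 3 cKO libraries, Tcf21 was held by 2, 1 and 1, and Myf5 by 0. In covered base pairs, 8 members had any coverage. Tbx1-Cre Ctrl lay above cKO without overlap at 4 of these 8, Msc, Myod1, Ebf2 and Ebf3, against 40.6% of 14665 genes with any such coverage. It lay above Mesp1-Cre at 3 of the 8, Myod1, Ebf2 and Ebf3, against 18.0% of 14808. In equal lists 6 members had any coverage. Of these, Ebf3 alone lay above cKO (29.9% of 13482 genes), and Lhx2 and Ebf3 lay above Mesp1-Cre (14.7%). Of the 15 promoter regions, 7 were held by all 9 libraries, against 55.0% in the genome, and 10 by all 3 Tbx1-Cre Ctrl libraries. Of these 10, 3 had no cKO peak, those at Myf6, Myod1 and Ebf2, against 4.49% of 13758 such promoter regions in the genome. None of the 3 was held by all 3 Tbx1-Cre Ctrl libraries in the equal lists, where 1, 0 and 1 of those libraries kept a peak there. In the sequence 500 bp on each side of the 5' TSS, the ratio of observed to expected CpG was 0.38 at Myf6, 0.41 at Myf5, 0.48 at Myod1, 0.49 at Ebf1, 0.51 at Tcf21, 0.64 at Msc, 0.69 at Lhx2, 0.71 at Ebf2 and 1.05 at Ebf3, with a median of 0.55 over 22222 genes. Myf6, Myf5 and Myod1 had the lowest ratios of the members.

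**Figure D5:**
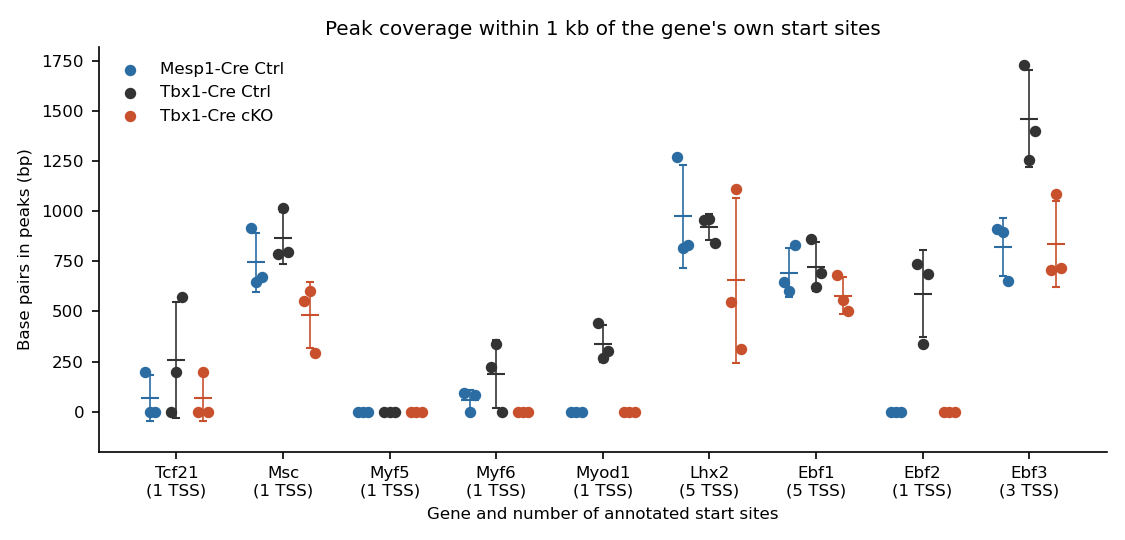
Base pairs covered by peaks within 1 kb of the gene's own start sites (vertical axis, bp) for the 9 genes (horizontal axis, with the number of annotated start sites), 1 point per library, with the mean and ± 1 SD (n = 3) by group. Myod1 and Ebf2 have coverage in the Tbx1-Cre Ctrl libraries alone, Myf5 has none, and the Tbx1-Cre Ctrl points lie above the cKO points at Msc, Myod1, Ebf2 and Ebf3.

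Against the mesodermal lineage, 3 of 9 members, Myf5, Myf6 and Ebf2, had every Tbx1-Cre Ctrl library above every Mesp1-Cre library, where 10.4% of 19986 genes did. For distal peaks 2 of 9 did, Myf5 and Myf6, against 11.2% of 18166 genes. Those 2 genes have nearly the same window and form 1 locus, so they are not separate cases in either count. The difference, Mesp1-Cre minus Tbx1-Cre Ctrl, had a median of -2 peaks over the members and -0.667 over all genes tested, and the smallest adjusted p over all genes was 0.921. With equal lists Ebf2 alone was called, for all peaks (2.09% of genes) and for distal peaks (3.63%). Scaled to 10000 peaks, Myf5, Myf6 and Ebf2 were called for all peaks (4.74% of genes) and Myf5 for distal peaks (9.09%). Leaving out Mesp1-Cre Ctrl replicate 1, the longest list of its group, or Tbx1-Cre Ctrl replicate 2 raised the count for all peaks from 3 to 5. No share over all genes is given with a library left out, so this rise is not set against other genes. The comparisons with cKO and with Mesp1-Cre share the Tbx1-Cre Ctrl libraries and are not independent.

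Of 15 other myogenic genes, 6 had every Tbx1-Cre Ctrl library above every cKO library for all peaks, Eya1, Pax3, Pax7, Cdh15, Chrna1 and Des, beside 27.3% of all genes. For distal peaks there were 4, Eya1, Pax3, Pax7 and Des, beside 25.6%. In equal lists 0 of the 15 did so for all or for distal peaks, beside 1.28% and 2.29% of genes. Eya1, a transcriptional cofactor of early muscle and placode cells, had 8, 8 and 10 peaks in Tbx1-Cre Ctrl, 3, 2 and 4 in cKO and 3, 3 and 6 in Mesp1-Cre Ctrl, and was the only one of the 15 with every Tbx1-Cre Ctrl library also above every Mesp1-Cre library. Pax3, which marks somite-derived muscle progenitors, had 9, 5 and 10 in Tbx1-Cre Ctrl and 3, 4 and 2 in cKO. Myog, which acts in differentiating muscle, had 5, 1 and 2 against 2, 2 and 1, with overlap. Promoter peaks were present at 13, 9 and 10 of the 15 genes in Tbx1-Cre Ctrl, 8, 8 and 6 in cKO and 9, 8 and 8 in Mesp1-Cre Ctrl.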

How the data were processed

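ATAC-seq peak lists of 9 libraries were used, grouped by their labels. Per the labels and the study's methods, the authors trimmed adapters, aligned reads to mm9 with Bowtie2 (2.3.4.3) and ran MACS2 on the libraries one by one. The deposited files hold the chromosome, start and end of each peak, with no score, so read depth is not known. Genes and TSSs came from the GENCODE annotation of the same build, and 1 marker gene, Sox1, was not found by name, and 1 gene of the list of other myogenic genes is not reported here. Peaks were counted per gene window by midpoint. Lists were merged into regions, and a library held a region where its peak overlapped it by at least 1 bp. Groups of 3 were compared by the exact two-sided permutation test (20 relabellings), adjusted over all coding genes with a peak in the window (Python 3.11.15, numpy 2.4.6). The study lists a separate pool of embryos for each library, so p-values measure the spread between pools. For Mesp1-Cre Ctrl replicate 1, whose list length matches none that the study gives, the pool could not be identified. Members and gene lists were chosen with earlier results of these data known. All members are named, as are their promoter regions and their distal regions held by all 9 libraries or by 3 Tbx1-Cre Ctrl and no cKO libraries. Other regions described, and the CpG ratios, were chosen after their values were seen. Alternatives were other windows, distal definitions and list lengths, leaving out each library, and a replicate block. Scripts were tested on simulated data.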

Additional observations from a re-analysis of the deposited data

How the results depend on the processing

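With the same number of widest peaks from every list, the members without overlap were 1 (all peaks) and 0 (distal) against cKO and 1 and 1 against Mesp1-Cre, and distal regions numbered 2 for those with 3 Tbx1-Cre Ctrl and no cKO peak and 1 for those in all libraries. Per 10000 peaks the members were 4 and 1 against cKO and 1 for distal peaks against Mesp1-Cre. Windows of 100 kb on each side gave 1 member (all peaks) and 0 (distal) against Mesp1-Cre and 11 regions without a cKO peak. Defining distal by midpoint or by 2 kb gave 0 members against Mesp1-Cre. Without single libraries, the counts were 7 to 8 members against cKO (5 to 7 distal), 3 to 5 against Mesp1-Cre (2 to 5 distal; 5 without Mesp1-Cre replicate 1, 4 without Tbx1-Cre Ctrl replicate 2), 7 to 15 regions without a cKO peak (15 without Tbx1-Cre Ctrl replicate 2 or cKO replicate 1) and 3 to 6 in all libraries (6 without cKO replicate 3). The cause of these moves was not tested beyond the fewer peaks or libraries used. For other windows, other distal definitions and left-out libraries, no share over all genes or all regions is given. Those counts show how the setting moves them and do not set the members apart from other genes.

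The sign of some differences turned, in peaks as the other group minus Tbx1-Cre Ctrl. In equal lists against cKO these were Msc 0.333, Myod1 0.333 and Ebf3 0.667, and for distal peaks Myf5 0.333 and Ebf3 1. Against Mesp1-Cre they were Msc 0.333 and Myod1 0.667, and for distal peaks Myod1 0.333 and Ebf3 0.333. Per 10000 peaks they were Lhx2 0.117 against cKO, and against Mesp1-Cre Msc 0.263, Lhx2 0.252 and Ebf1 0.0482 for all peaks and Tcf21 0.0551, Msc 0.0966 and Lhx2 0.0710 for distal peaks. Against Mesp1-Cre, Lhx2 became 0.333 without Tbx1-Cre Ctrl replicate 1 (lowest -0.667 over the libraries left out), Msc 0.167 without Mesp1-Cre replicate 3 (lowest -0.833) and Myod1 distal 0.167 without Tbx1-Cre Ctrl replicate 1 (lowest -1.33). Coverage near the TSSs against Mesp1-Cre turned for Msc (73 bp in equal lists, 14 bp within 500 bp), Lhx2 (-111 bp in equal lists, -94.3 bp without Mesp1-Cre replicate 1, highest 132 bp over the libraries left out) and Ebf1 (36.2 bp without Tbx1-Cre Ctrl replicate 1, 13.7 bp without Mesp1-Cre replicate 2, lowest -101 bp).

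Libraries share a replicate number only: over genes, deviations of same-numbered libraries correlated from 0.0281 to 0.377 between Tbx1-Cre Ctrl and cKO and from 0.0546 to 0.440 between Tbx1-Cre Ctrl and Mesp1-Cre, and not every library correlated best with its own number. With the replicate block (exact sign-flip test, smallest p 0.25), the count was lower in all 3 numbered pairs at 8 members against cKO (6 distal) and at 5 against Mesp1-Cre (5 distal). No share of all genes lower in all 3 pairs is given beside these counts. For all peaks, 87.1% of genes tested had a lower mean in cKO and 73.3% in Mesp1-Cre, so the counts do not set the members apart.

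Depth is unknown, the exact test of 3 against 3 cannot pass 0.05, and no interval can be given for an absent peak.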
